A study of Rattus norvegicus with 9 samples.

Results

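Elastic fibres are the matrix cables that let lung tissue stretch and recoil. The genes described here encode 10 of their building proteins: elastin itself (Eln), the fibrillins Fbn1 and Fbn2, the microfibril-associated proteins Mfap2, Mfap4 and Mfap5, the fibulins Fbln5 and Efemp2, and the cross-linking enzymes Lox and Loxl1. They were chosen by name for their known role, with earlier results of these data known. Each rat symbol was matched to the NCBI Gene ID of the deposited table, which holds 17465 genes. All 10 were in the table and passed the filter on low counts, as did 12966 genes in all.

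Total RNA, depleted of ribosomal RNA, was sequenced from 9 fetal rat lungs of the Sprague-Dawley strain. The 3 control lungs received no treatment. The 3 hypoplastic lungs, also untreated, were underdeveloped after oligohydramnios, a shortage of amniotic fluid. The 3 treated lungs were hypoplastic lungs given AFSC-EVs, extracellular vesicles released by amniotic fluid stem cells. The sources used here do not give fetal age, sex, litter, vesicle dose or time of treatment. No hypoplastic lung is labelled as given a carrier alone, so the handling that goes with treatment cannot be told apart from the vesicles.

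In a developing lung, mesenchymal cells secrete fibrillins that polymerise into microfibrils, to which the Mfap proteins attach. Fibulins carry tropoelastin, the soluble form of elastin, and the lysyl oxidases to this scaffold. The enzymes then join lysines of neighbouring elastin molecules into an insoluble polymer. In lung the polymer is laid down in airway and vessel walls and later at the tips of the growing alveolar septa, where myofibroblasts make it, and mechanical stretch of the lung by its own fluid is known to bear on this process.

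Library totals ran from 56922779 to 88243188 estimated counts. Levels are given as CPM, the usual count unit relative to library size, here with sizes scaled by the TMM method, and they are not divided by transcript length, so levels are compared between lungs and not between genes. Libraries are called by group and number, as control 1. Control 2 and hypoplastic 2 lay at the opposite ends of the first principal component, which held 33.4% of the variance (scores of -54.9 and 62.2, with the other 7 libraries between -12.9 and 20.6), and values without them are given where leaving them out moved a result most. Xist, which marks female cells, was above 100 CPM in 1 control, 2 hypoplastic and 2 treated libraries. Markers of lung epithelium were present in every library (summed over 7 genes, 3322 to 5060 CPM in control, 2654 to 2906 in hypoplastic and 3103 to 3495 in treated lungs). The labels do not say whether the lungs came from separate litters, and p-values measure the spread between these 9 samples only.

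None of the 10 elastic fibre genes was called changed in any of the 3 comparisons at an edgeR adjusted p under 0.05, and DESeq2 also called 0 of them in each. Over all genes tested, edgeR called 0.00771% (1 gene) between hypoplastic and control lungs and 0% in both comparisons of treated lungs. DESeq2 called 207 of the 12966 genes between hypoplastic and control lungs and fewer in the comparisons of treated lungs. At an unadjusted p under 0.05, 2 members stood out in hypoplastic against control lungs, Fbln5 (lower) and Mfap5 (higher), where 12.4% of all genes tested passed, 6.67% higher and 5.69% lower. In treated against hypoplastic lungs the member was Mfap5 (lower; 5.56% of all genes passed and 3.56% were lower), and in treated against control lungs it was Fbln5 (lower; 4.17% passed and 2.5% were lower). These shares of members, 2 or 1 of 10, were close to those of all genes. Left without control 2, or without hypoplastic 2, no member passed that p in the comparisons that use the library left out. Below, values for several comparisons stand in this order: hypoplastic minus control, treated minus hypoplastic, treated minus control.

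**Figure D1:**
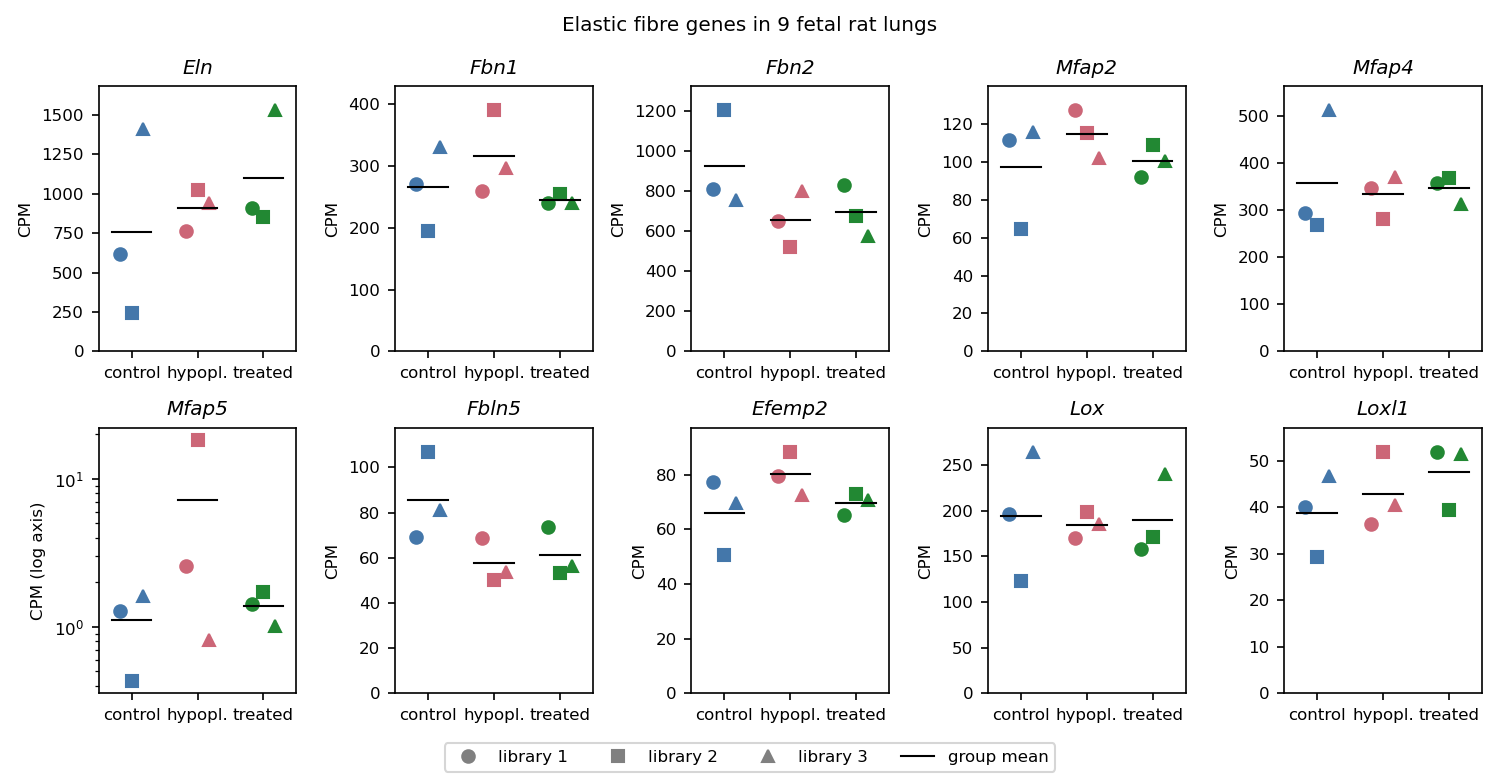
Level of each elastic fibre gene in each of the 9 fetal lungs (CPM on the vertical axis, linear from 0 except for Mfap5, which has a log axis), by group. Symbols mark library 1, 2 or 3 of a group and bars the group mean. Control 2 (blue square) is the lowest point of 8 genes and the highest of Fbn2 and Fbln5, while for Mfap5 hypoplastic 2 reaches 18.27 CPM and the other 8 libraries lie between 0.4281 and 2.577.

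Elastin came first because it is the bulk of the fibre. Eln (Gene ID 25043) was at 617, 246.1 and 1411 CPM in control lungs 1, 2 and 3, at 761.3, 1024 and 937.4 CPM in hypoplastic lungs, and at 910.6, 853.7 and 1529 CPM in treated lungs. The control lungs alone spanned a 5.73-fold range and enclosed all hypoplastic values, while the hypoplastic lungs spanned 1.35-fold and the treated lungs 1.79-fold. Mean levels were 757.9 ± 594.9, 907.7 ± 134 and 1098 ± 374.4 CPM (SD, n = 3 each).

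The fitted log2 fold change of Eln was 0.26 (SE 0.50, edgeR adjusted p 0.865) in hypoplastic against control lungs, 0.27 (SE 0.50, 0.964) in treated against hypoplastic lungs, and 0.53 (SE 0.50, 0.998) in treated against control lungs. The 95% interval of the first ran from 0.55-fold to 2.61-fold, so neither a fall nor a rise of that size could be told from no change with these libraries. Its direction rested on single control lungs. Without control 2 the change was -0.16 and without control 3 it was 1.07. Between treated and control lungs Eln ran from 0.11 without control 2 to 1.35 without control 3 (unadjusted edgeR p 0.0087, adjusted p 0.905). The spread of Eln within groups (SD of log2 CPM 0.785) was larger than that of 92.3% of the genes tested, whose median was 0.225.

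Fibrillins form the microfibril scaffold, and Fbn2 is known as the fibrillin of fetal tissue, while Fbn1 persists in the adult. Fbn1 (Gene ID 83727) was at 271.4, 194.4 and 330.1 CPM in control, at 259.1, 390.3 and 296.7 CPM in hypoplastic and at 239.9, 254.7 and 239.8 CPM in treated lungs. Every treated lung lay below every hypoplastic lung, and the treated lungs were the most alike of any group (1.06-fold range). Fbn1 was the 1 member whose libraries did not overlap in treated against hypoplastic lungs, a separation shown by 9.81% of all genes tested (5.07% higher, 4.74% lower). The log2 fold change there was -0.37 (SE 0.20, edgeR adjusted p 0.907), or -0.18 without hypoplastic 2. Between hypoplastic and control lungs it was 0.25 (SE 0.20, edgeR adjusted p 0.634), or 0.0671 without control 2, 0.0664 without hypoplastic 2 and -0.11 without both. Between treated and control lungs it was -0.12 (SE 0.20, edgeR adjusted p 0.998), or -0.30 without control 2.

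Fbn2 (Gene ID 689008) was at 809, 1203 and 755 CPM in control lungs, at 649.6, 520.7 and 799.5 CPM in hypoplastic lungs and at 831.3, 675.8 and 576 CPM in treated lungs. The highest level was that of control 2 and the lowest that of hypoplastic 2, and the 3 groups overlapped. The log2 fold change was -0.49 (SE 0.22, unadjusted p 0.0553, edgeR adjusted p 0.412) in hypoplastic against control lungs, an interval of 0.502-fold to 1.01-fold. It was -0.25 without control 2, -0.35 without hypoplastic 2 and -0.11 without both. Treated lungs differed from hypoplastic lungs by 0.0807 (SE 0.22) and from control lungs by -0.41 (SE 0.22), with edgeR adjusted p of 0.978 and 0.998. The last value was -0.17 without control 2.

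The ratio of Fbn2 to Fbn1 counts within a library does not depend on how libraries are scaled. It was 2.98, 6.19 and 2.29 in control lungs, 2.51, 1.33 and 2.69 in hypoplastic lungs and 3.47, 2.65 and 2.4 in treated lungs. The 2 libraries at the ends of the range were control 2 and hypoplastic 2, and the others lay between 2.29 and 3.47. On the log2 scale the mean was 1.80 ± 0.744, 1.06 ± 0.558 and 1.49 ± 0.274 (SD, n = 3 each). Exact two-sided permutation tests of the 3 comparisons gave p = 0.3, 0.5 and 0.7, each with 3 lungs against 3. The smallest p this design allows is 0.1, so no comparison of the ratio could pass 0.05.

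Mfap2 and Mfap5, also called MAGP1 and MAGP2, are small proteins that bind fibrillin. Mfap2 (Gene ID 313662) was at 111.7, 64.6 and 115.8 CPM in control, at 127.2, 115.2 and 101.8 CPM in hypoplastic and at 91.71, 109 and 100.2 CPM in treated lungs. Apart from control 2, all libraries lay between 91.71 and 127.2 CPM. Its log2 fold changes were 0.24, -0.19 and 0.0429, each with an SE of 0.20 and an edgeR adjusted p of 0.654 or higher. The first was 0.0116 and the last -0.18 without control 2.

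Mfap5 (Gene ID 362429) was at 1.272, 0.4281 and 1.627 CPM in control lungs, at 2.577, 18.27 and 0.8145 CPM in hypoplastic lungs and at 1.435, 1.71 and 1.013 CPM in treated lungs. A single lung, hypoplastic 2, stood far above the rest with 1119 estimated counts, while hypoplastic 3 was below 2 of the 3 control lungs. The log2 fold change was 2.67 (SE 0.95, edgeR adjusted p 0.347) in hypoplastic against control lungs and -2.37 (SE 0.92, edgeR adjusted p 0.896) in treated against hypoplastic lungs. Both comparisons use the same hypoplastic libraries. Without hypoplastic 2 these values were 0.60 and -0.30. In treated against control lungs the change was 0.30 (SE 0.999, edgeR adjusted p 0.998). Mfap5 varied within groups more than 98.6% of the genes tested.

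Collagen genes and Dcn were also highest in hypoplastic 2. The summed level of the 6 fibroblast markers (Col1a1, Col1a2, Col3a1, Dcn, Pdgfrb and Tcf21) was 14560 CPM there and 1881 to 6209 CPM in the other 8 libraries. Most of that sum was collagen (Col1a1 5816, Col3a1 5268 and Col1a2 3230 CPM). Pdgfrb (82.15 CPM) was above its level in the other hypoplastic lungs (59.15 and 59.22 CPM). It was close to that in control 1 and 3 (78.44 and 81.78 CPM) and below that in treated 3 (85.34 CPM). Tcf21 (21.75 CPM) lay low in its range of 18.53 to 31.28 CPM, so Tcf21 was not raised in that lung. The mesothelial markers Wt1 and Msln, 2 of the 4 listed, summed to 77.84 CPM there and to 12.76 to 31.39 CPM elsewhere, and the 4 macrophage markers to 182.7 CPM against 22.08 to 151.8. Their part in the level of Mfap5 was not tested. In bulk lung RNA, a different number of cells of a type and a different amount of RNA per cell cannot be told apart.

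To show what lies before the start sites of genes in paired families, the 250 bases upstream of the RefSeq start are printed for the MAGP pair. They run 5′ to 3′ on the gene's strand. The fitted changes of Mfap2 and Mfap5 had the same sign in each comparison. Pearson's r of their log2 CPM over the 9 lungs was 0.608 (Spearman's rho 0.75), or 0.497 without control 2 and treated 1. Promoter entries of 7 of the 10 members were matched by Gene ID in the RefSeq table of build GRCr8. That build differs from the rn7 of the submitters' notes, and the position is that of the sequence only. Capitals mark matches, on either strand, to the GC box bound by Sp1 factors (GGGCGG) and to the CCAAT box bound by NF-Y (CCAAT). Searched in the same way were the TATA box, with letters TATAAA, and the AP-1 site of Fos and Jun proteins, with letters TGANTCA. The last motifs were the site of TEAD factors, partners of the stretch-sensing protein YAP, with letters GGAATG, and the CArG box of serum response factor.
Mfap2 (GRCr8, chr5:158597478-158597727, plus strand): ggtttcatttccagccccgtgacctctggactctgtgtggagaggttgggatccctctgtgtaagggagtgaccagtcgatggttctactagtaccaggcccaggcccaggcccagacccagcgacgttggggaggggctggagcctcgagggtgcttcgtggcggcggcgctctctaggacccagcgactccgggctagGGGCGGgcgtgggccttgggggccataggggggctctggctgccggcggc
Mfap5 (GRCr8, chr4:157399669-157399918, plus strand): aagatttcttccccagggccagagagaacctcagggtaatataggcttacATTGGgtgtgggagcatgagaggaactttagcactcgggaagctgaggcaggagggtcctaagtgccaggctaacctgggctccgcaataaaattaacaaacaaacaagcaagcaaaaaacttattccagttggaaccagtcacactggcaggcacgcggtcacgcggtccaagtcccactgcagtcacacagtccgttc
The Mfap2 window held 1 GC box, and the Mfap5 window held 1 CCAAT box. Over the 33469 rat promoter windows of that length, 30.5% held a GC box and 34% a CCAAT box. GC content was 67.6% for Mfap2 and 51.6% for Mfap5. Such matches describe letters and do not show that a factor binds, and the data hold no measure of binding or promoter use.

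Mfap4 (Gene ID 287382), a fibrinogen-like protein that binds elastin and fibrillin, was at 294.1, 268.8 and 511.9 CPM in control, at 347.4, 281.1 and 370.3 CPM in hypoplastic and at 358.2, 368.2 and 312.5 CPM in treated lungs. Only control 3 stood apart, above all other libraries. The log2 fold changes were -0.11, 0.0570 and -0.0489, each with an SE of 0.23 and an edgeR adjusted p of 0.88 or higher. The first was 0.24 without control 3 and 0.0021 without hypoplastic 2.

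Fibulins bring elastin and lysyl oxidases to the microfibril. Fbln5 (fibulin-5, Gene ID 29158) was at 69.36, 106.8 and 81.01 CPM in control lungs, at 68.99, 50.28 and 53.57 CPM in hypoplastic lungs and at 73.81, 53.5 and 56.18 CPM in treated lungs. All 3 hypoplastic lungs lay below all 3 control lungs, by a narrow margin between control 1 and hypoplastic 1, and treated 1 lay among the control lungs. It was the 1 member whose groups were separate in that comparison, where the libraries of 16.7% of all genes tested were separate (7.68% higher, 9.05% lower). Fbln5 differed by a log2 fold change of -0.57 (SE 0.19, interval 0.498-fold to 0.907-fold, unadjusted p 0.0147), with an edgeR adjusted p of 0.332 over all genes. The summed epithelial markers also separated these groups (3322 to 5060 CPM in control, 2654 to 2906 CPM in hypoplastic lungs), although Epcam, Ager and Scgb1a1 overlapped. The sum of the 4 skeletal muscle markers did so in the other direction (9.086 to 10.74 and 13.38 to 16.92 CPM). That sum was mostly Acta1, while Ckm, Myh3 and Tnnt3 overlapped between the groups. The part of these markers in the level of Fbln5 was not tested.

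Treated lungs had an Fbln5 level -0.49 from that of control lungs on the log2 scale (SE 0.19, unadjusted p 0.0309, edgeR adjusted p 0.998), and 0.0861 from that of untreated hypoplastic lungs (SE 0.19, edgeR adjusted p 0.969). No member had separate groups between treated and control lungs, as 9.39% of all genes did (4.37% higher, 5.02% lower). Without control 2 the difference between treated and control lungs was -0.30 (unadjusted edgeR p 0.139). Without treated 2 or treated 3 it was -0.40 (0.104) or -0.43 (0.0879). Across all alternatives its change in hypoplastic against control lungs lay between -0.72 and -0.30, always negative, with the smallest adjusted p, 0.15, from DESeq2. Without control 2 the change was -0.39 (unadjusted edgeR p 0.0658) and without hypoplastic 2 it was -0.48 (0.0508). Fbn2 also stayed negative in each alternative, from -0.66 to -0.11.

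Efemp2 (fibulin-4, Gene ID 293677) was at 77.38, 50.58 and 69.77 CPM in control, at 79.65, 88.29 and 72.47 CPM in hypoplastic and at 65.12, 72.81 and 70.64 CPM in treated lungs. It was lowest in control 2 and highest in hypoplastic 2, the reverse of Fbln5. The log2 fold changes were 0.28, -0.20 and 0.0767, each with an SE of 0.15, and the edgeR adjusted p were 0.478, 0.94 and 0.998. Leaving out control 2 gave 0.12 for the first and -0.0815 for the last. The Efemp2 to Fbln5 count ratio was 1.12, 0.473 and 0.861 in control lungs, 1.15, 1.76 and 1.35 in hypoplastic lungs and 0.882, 1.36 and 1.26 in treated lungs. Each hypoplastic ratio was above each control ratio, by little for control 1 and hypoplastic 1. This ratio was chosen after the values were seen and was not tested.

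The upstream windows of both fibulin genes are shown because the pair had opposite profiles over the 9 lungs (r = -0.777, rho -0.733), with the same motifs in capitals. That relation rested on control 2 and hypoplastic 2, without which r was -0.138.
Fbln5 (GRCr8, chr6:126742707-126742956, minus strand): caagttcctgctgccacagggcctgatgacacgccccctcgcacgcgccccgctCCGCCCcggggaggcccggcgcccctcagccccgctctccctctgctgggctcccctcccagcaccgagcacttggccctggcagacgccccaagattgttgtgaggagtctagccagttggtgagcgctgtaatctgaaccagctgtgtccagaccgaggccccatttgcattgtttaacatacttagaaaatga
Efemp2 (GRCr8, chr1:212211472-212211721, plus strand): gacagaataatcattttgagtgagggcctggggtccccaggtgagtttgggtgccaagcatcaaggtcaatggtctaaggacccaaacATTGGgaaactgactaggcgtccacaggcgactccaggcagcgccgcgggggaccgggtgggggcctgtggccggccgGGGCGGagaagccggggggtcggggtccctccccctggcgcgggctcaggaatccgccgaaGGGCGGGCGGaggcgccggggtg
The Efemp2 window held 3 GC boxes and 1 CCAAT box, and the Fbln5 window held 1 GC box. Neither held the TATA box (in 12.9% of all windows), the AP-1 site (6.34%), the TEAD site (12.1%) or the CArG box (1.5%). GC content was 63.2% for Fbln5 and 68% for Efemp2, against a median of 51.2% over all windows.

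Lysyl oxidases form the cross-links. Lox (Gene ID 24914) was at 196.8, 123.3 and 264.3 CPM in control, at 169.9, 198.8 and 186.1 CPM in hypoplastic and at 158.7, 171.6 and 240.2 CPM in treated lungs. Control 2 was the lowest and control 3 the highest of the 9 libraries, so the control lungs enclosed the others. Its log2 fold changes were -0.0751, 0.0403 and -0.0348, each with an SE of 0.25 and an edgeR adjusted p of 0.923 or higher. The first was -0.32 without control 2 and 0.21 without control 3.

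Loxl1 (Gene ID 315714), the family member that stays bound to elastic fibres, was at 40.12, 29.32 and 46.65 CPM in control, at 36.31, 51.76 and 40.45 CPM in hypoplastic and at 51.83, 39.45 and 51.42 CPM in treated lungs. The groups overlapped throughout. Its log2 fold changes were 0.15 (SE 0.20, edgeR adjusted p 0.792), 0.15 (SE 0.20, 0.957) and 0.30 (SE 0.20, 0.998). The last was 0.13 without control 2, and with all libraries its interval ran from 0.905-fold to 1.67-fold.

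**Figure D2:**
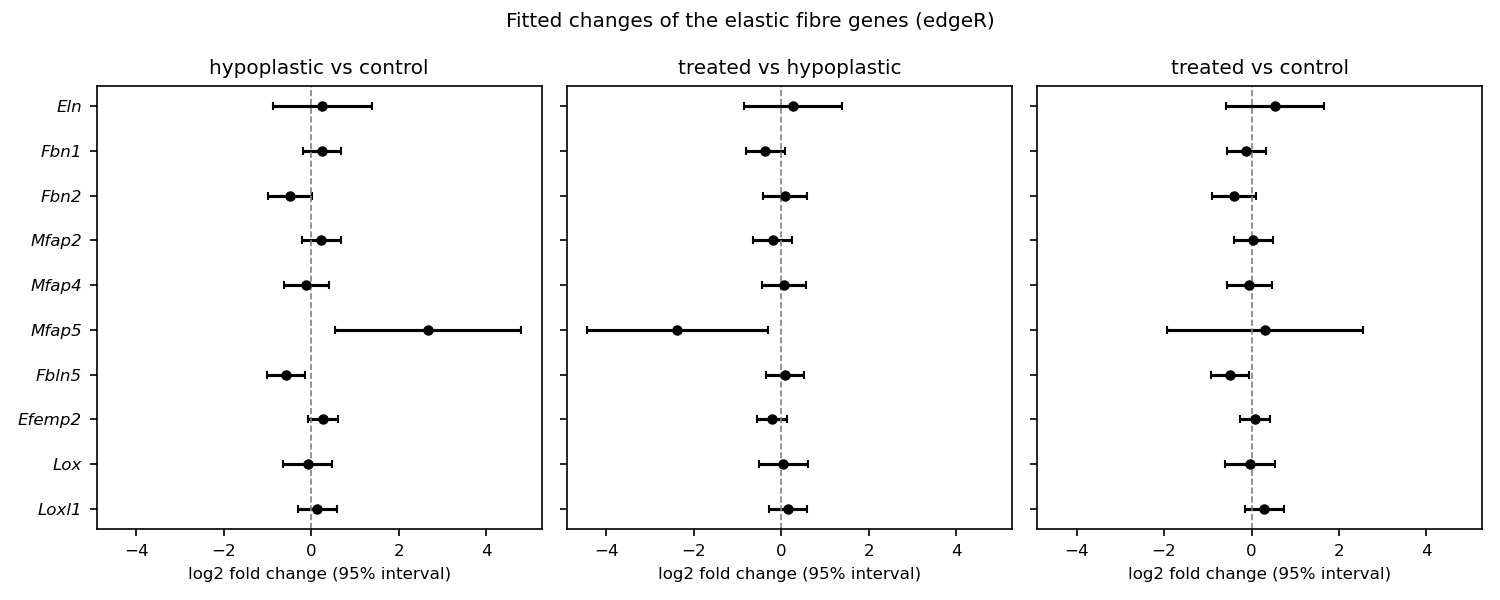
Fitted log2 fold change (horizontal axis) of each elastic fibre gene in the 3 comparisons, from 1 edgeR fit over 9 libraries; points are estimates and bars approximate 95% intervals. Intervals that leave out 0 are those of Fbln5 and Mfap5 between hypoplastic and control, of Mfap5 between treated and hypoplastic and of Fbln5 between treated and control lungs, and none of these passed adjustment over all genes.

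Over the 10 members, 6 had a higher and 4 a lower fitted level in hypoplastic than in control lungs, with a median log2 fold change of 0.191, beside 51.9% higher and a median of 0.0129 over all genes tested. Without control 2 the median of the members was -0.0901, and without both control 2 and hypoplastic 2 it was -0.141. In treated against hypoplastic lungs 6 were higher and 4 lower, with a median of 0.0487 (all genes -0.01), and in treated against control lungs 5 were higher and 5 lower, with a median of 0.00407 (all genes 0.00277). The median size of the change, whatever its sign, was 0.255, 0.172 and 0.207 for the members in the 3 comparisons, beside 0.177, 0.136 and 0.128 for all genes.

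The members varied most among the control lungs. Control 2 was the lowest of the 9 libraries for 8 members and the highest for the other 2, Fbn2 and Fbln5. Over all genes tested, control 2 was the lowest library for 22% and the highest for 22.4%, so it stood at an end for 44.5% of genes. For 9 of the 10 members the SD of log2 CPM was largest in the control group, against 33.4% of all genes, and the exception was Mfap5. The control SD was 1.26 for Eln and between 0.316 and 0.986 for the other members, beside a median of 0.197 over all genes. The summed level of the 10 genes was 2488, 2287 and 3587 CPM in control, 2502, 2739 and 2859 CPM in hypoplastic and 2783, 2600 and 3177 CPM in treated lungs.

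**Figure D3:**
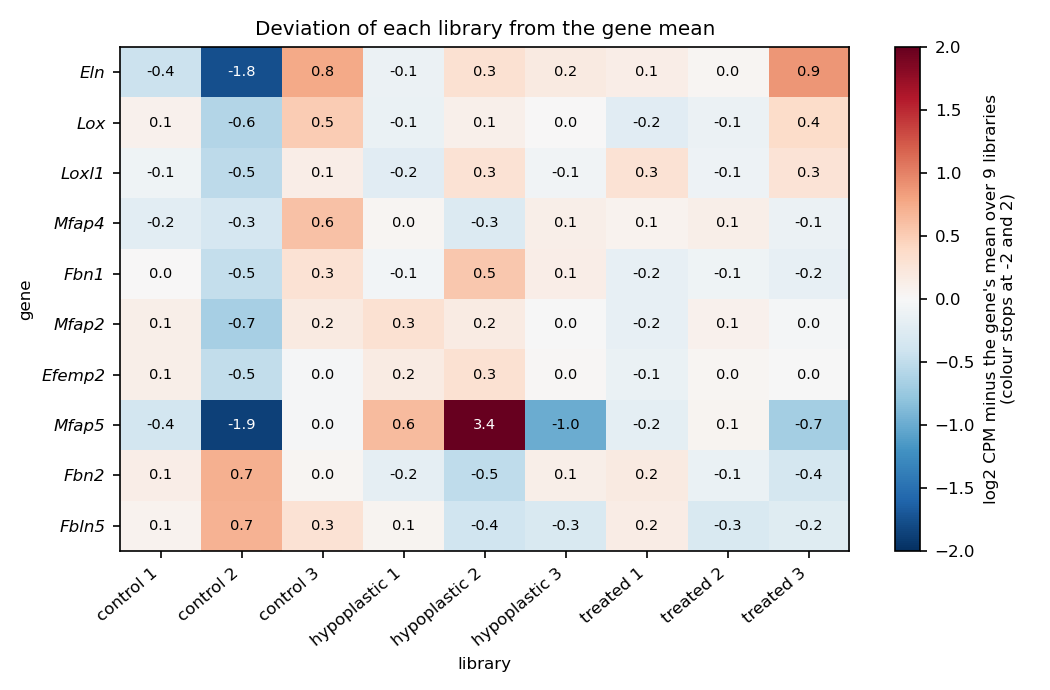
Log2 CPM of each member in each library minus that gene's mean over the 9 libraries (rows are genes, columns libraries; red is above and blue below the mean, colour stops at -2 and 2). In the control 2 column Fbn2 and Fbln5 are above their means while the other 8 genes are below theirs, and the hypoplastic 2 column has Mfap5 far above and Fbn2, Fbln5 and Mfap4 below.

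Most markers of cells that make elastin were also low in control 2. The 4 alveolar myofibroblast markers (Pdgfra, Fgf18, Tgfbi and Stc1) summed to 76.45 CPM there and to 182.4 to 532.9 CPM in the other libraries. The sum is mostly Pdgfra and Tgfbi (35.64 and 31.98 CPM in control 2), and Fgf18 went the other way, with its highest level in control 2 (2.479 CPM, against 0.9592 to 2.155 CPM). The 8 smooth muscle markers summed to 199.9 CPM in control 2 and to 455.8 and 535 CPM in the other control lungs. Their sums were 480.4 to 894.4 CPM in hypoplastic lungs and 269.7 to 736.2 CPM in treated lungs. Myh11, Actg2 and Synpo2 were lower in treated 1 (36.15, 11.28 and 6.978 CPM) than in control 2 (44.25, 11.42 and 7.616 CPM). The fibroblast sum, which is mostly collagen, was 1881 CPM in control 2 and 3109 CPM or more elsewhere. Of its other markers Pdgfrb was lowest in control 2 (28.4 CPM), while Dcn (2.247 CPM) and Tcf21 (22.31 CPM) were not. The lung epithelium sum (5060 CPM) was the highest of the 9. Control 2 also had the highest share of ribosomal and 7SL RNA counts (19.9%, against 14.1 to 18.3% in the other libraries) and 9655 CPM of red cell markers, against 2864 to 5623 CPM. Their part in the elastic fibre levels was not tested.

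Markers of heart and cartilage were read as well. The 6 heart markers tested summed to 241.1 and 113.1 CPM in hypoplastic 1 and 2 and to 3.964 to 17.99 CPM in the other 7 libraries. Cartilage markers summed to 998.1 CPM in hypoplastic 1, to 129.1 CPM in control 2 and to 348.2 to 527.1 CPM elsewhere. Eln in hypoplastic 1 was the lowest of its group (761.3 CPM). Skeletal muscle markers summed to 9.086 to 16.92 CPM, and the 6 endothelial markers to 739.2 to 977.6 CPM. The part of these tissues in the results was not tested.

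Over the 9 libraries the members fell into profiles, given here as a description of log2 CPM with no test, since all members were measured in the same libraries. Among the members Eln was most like its cross-linkers: Pearson's r was 0.861 with Lox (Spearman's rho 0.767) and 0.847 with Loxl1 (0.733). Without control 2 and treated 3, the libraries farthest from the median of Eln, these were 0.631 and 0.548. Mfap4 then had a higher r with Eln, 0.698 (0.563 over all 9), and Fbn1 had 0.557 (0.592). Efemp2 and Mfap5 had 0.611 and 0.394 over all 9, and -0.228 and 0.186 without those libraries. Fbn2 ran the other way, with r = -0.77 to Eln (rho -0.6), which was -0.148 without those libraries and so rested on them. The same held for Fbln5 and Eln (r = -0.641, rho -0.35, then 0.125) and for Mfap2 and Eln (0.688, rho 0.15, then -0.0377). The closest pair was Efemp2 and Mfap2 (r = 0.912, rho 0.717), at 0.804 without control 2 and hypoplastic 2. Fbn2 and Fbln5 had an r of 0.816 (rho 0.733), or 0.401 without the same libraries. Of the 45 pairs of members 29 had a positive r, and 15 of the 16 negative pairs held Fbn2 or Fbln5. Without control 2 the positive pairs were 23, and 12 of the 22 negative pairs held Fbn2 or Fbln5, so that division was less sharp. Fbn2 then kept a negative r (-0.231 to -0.683) with every member except Mfap4 (0.452) and Fbln5 (0.59). Fbln5 turned positive with Lox (0.149) and Mfap2 (0.0956). Without hypoplastic 2 as well, the r of Fbn2 was -0.253 with Efemp2 and 0.391 with Fbn1.

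Among 11342 other genes with a mean of at least 1 CPM, those with the profile most like Eln over the 9 libraries were Spn (r = 0.971), Sox4 (0.969), Csnk2a2 (0.966), Kcnj8 (0.964), Nup62 (0.961) and Sec62 (0.957). Without control 2 and treated 3 their r was 0.765 to 0.901, with the highest for Sox4. Kcnj8, a potassium channel subunit of mural cells, was at 2.943 CPM in control 2, the lowest value, and at 29.57 and 29.32 CPM in hypoplastic 2 and treated 3. Sox4, a transcription factor of embryonic tissue, ran from 265.5 CPM in control 2 to 499.1 CPM in control 3.

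**Figure D4:**
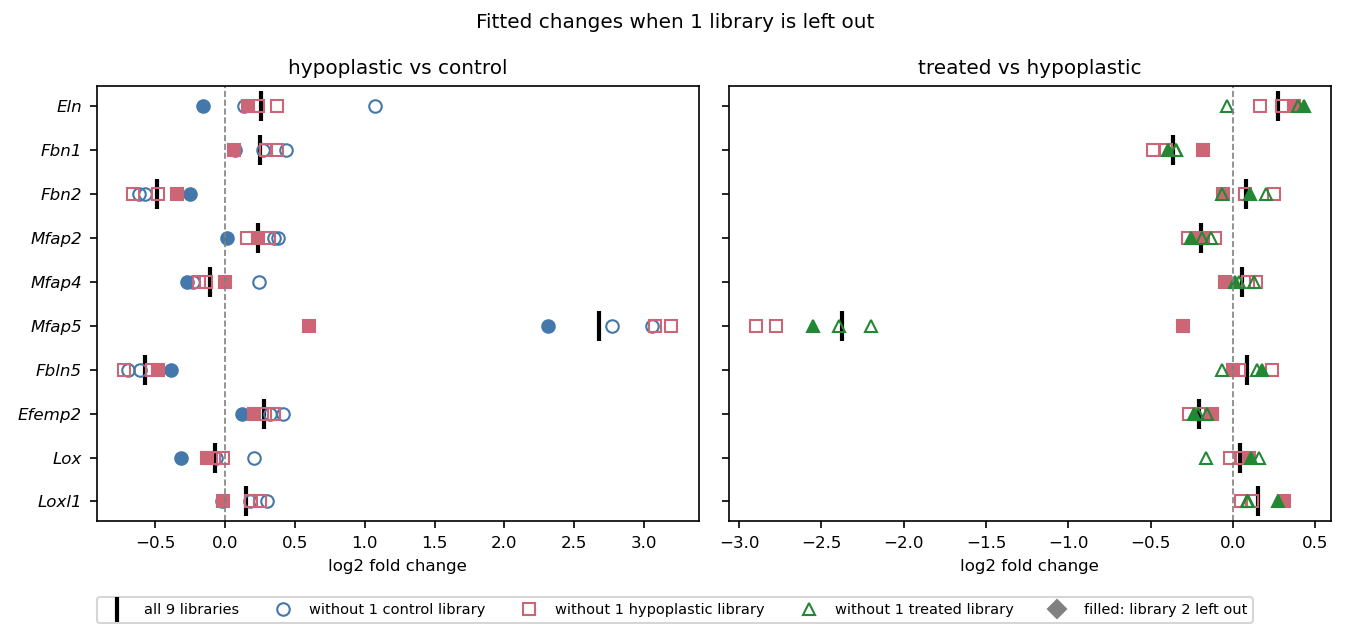
Log2 fold change of each member with all 9 libraries (black bar) and with 1 library of the compared groups left out (circles control, squares hypoplastic, triangles treated; filled where library 2 of the group is left out). Leaving out control 2 or control 3 moves Eln from 0.26 to -0.16 or 1.07, and leaving out hypoplastic 2 brings Mfap5 from 2.67 to 0.60 and from -2.37 to -0.30.

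A wider list of 38 genes was drawn up by known role, with earlier results of these data known, and 32 of them were tested. The 19 tested genes of fibre assembly and microfibrils included latent TGF-beta binding proteins (Ltbp1 to Ltbp4), emilins, further lysyl oxidases and proteoglycans. Between hypoplastic and control lungs 0 passed the edgeR threshold. At an unadjusted p under 0.05, 4 were higher and 0 lower, beside 6.67% and 5.69% of all genes tested, and the 4 became 2 without hypoplastic 2 and 1 without both control 2 and hypoplastic 2. A higher fitted level was found for 14 (73.7%, beside 51.9% of all genes), with a median log2 fold change of 0.339, or 0.186 without control 2 and 0.0234 without both. The lysyl oxidases outside the members, Loxl2, Loxl3 and Loxl4, had fitted changes of 0.86, 0.76 and 0.90, with edgeR adjusted p of 0.445, 0.325 and 0.542. Loxl2 was lowest in control 2 (16.77 CPM) and highest in hypoplastic 2 (106.3 CPM). Its other levels were 46.48 and 62.05 CPM in control and 54.44 and 66.28 CPM in hypoplastic lungs. The value of Loxl4 came from hypoplastic 1 alone (4.285 CPM), since hypoplastic 2 and 3 (1.045 and 0.7783 CPM) were within or below the control range of 0.8383 to 1.333 CPM. Vcan, a proteoglycan of provisional matrix, had 0.64 (edgeR adjusted p 0.366). The Ltbp genes lay between -0.17 and 0.31.

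Dcn, which encodes the small proteoglycan decorin, was the assembly gene of smallest p in hypoplastic against control lungs. It was at 1.838, 2.247 and 3.363 CPM in control lungs, at 13.25, 147 and 1.973 CPM in hypoplastic lungs and at 4.819, 3.994 and 4.684 CPM in treated lungs. Hypoplastic 2 was again far above the rest, and hypoplastic 3 was within the control range. Its first log2 fold change was 4.44 (SE 1.22, edgeR adjusted p 0.317), and the second was -3.59 (SE 1.16, edgeR adjusted p 0.859). Without hypoplastic 2 these were 1.62 and -0.77. DESeq2 gave the first an adjusted p of 0.0228. Dcn was the 1 assembly gene it called there, where it called 207 genes over the whole table. Dcn is also 1 of the fibroblast markers summed above.

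Of the 13 tested genes of elastin breakdown and its inhibitors, 12 had a higher fitted level in hypoplastic than in control lungs. The 12 include Mmp14 at 0.00070. The median of the list was 0.691, beside 51.9% higher and a median of 0.0129 over all genes tested. By edgeR 0 passed after adjustment. At an unadjusted p under 0.05, 8 were higher, beside 6.67% of all genes tested. The count of 8 became 2 without control 2, 3 without hypoplastic 2 and 1 without both. The list was chosen with earlier results of these data known, so these shares are no test of it. Mmp9, a gelatinase that also cuts elastin, was at 1.241, 0.3924 and 1.614 CPM in control, at 3.751, 19.1 and 3.837 CPM in hypoplastic and at 2.778, 0.9327 and 4.449 CPM in treated lungs. No hypoplastic lung overlapped a control lung, and 7.68% of all genes tested were separate in that direction. Mmp9 differed by 3.01 on the log2 scale (SE 0.81, edgeR adjusted p 0.317), or by 1.77 without hypoplastic 2. It was the 1 breakdown gene that DESeq2 called (adjusted p 0.0451), where DESeq2 called 207 genes over the whole table.

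Elane, the elastase of neutrophil granules, had 5, 0 and 0 estimated counts in control lungs, 6, 101 and 66 in hypoplastic lungs and 4, 1 and 62 in treated lungs. At these counts its fitted fold change depends on the prior count and is not given, and the edgeR adjusted p was 0.317 in hypoplastic against control lungs and 0.998 in treated against control lungs. Timp1, Slpi and Serpine2 encode protease inhibitors, so a higher value there is not one of a protease. All were among the 8 genes higher at an unadjusted edgeR p under 0.05 in hypoplastic against control lungs. Timp1 differed by 0.81 on the log2 scale (edgeR adjusted p 0.35), Slpi by 3.02 (0.361) and Serpine2 by 0.52 (0.38). Slpi was at 23.77 CPM in hypoplastic 2 and at 1.464 and 1.231 CPM in the other hypoplastic lungs. Mmp14 differed by 0.00070 and Timp2 by -0.10.

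Between treated and hypoplastic lungs the wider list had the other sign. A lower fitted level was found for 15 of the 19 assembly genes and 12 of the 13 breakdown genes, with medians of -0.266 and -0.427. Over all genes tested 6730 of 12966 were lower, with a median of -0.01. This comparison and that of hypoplastic with control lungs share the hypoplastic libraries, so the opposite signs are not independent. By edgeR and by DESeq2 0 passed. The genes under an unadjusted p of 0.05 by edgeR were 3, each with a lower level: Ctsk, Dcn and Mmp9 (3.56% of all genes were lower at that p). Without hypoplastic 2 none of these 3 passed, with unadjusted edgeR p of 0.0555, 0.223 and 0.421. In that fit 1 other assembly gene was lower at an unadjusted p under 0.05. Ctsk, a cathepsin that degrades elastin and collagen, was at 2.12, 12.59 and 1.068 CPM in hypoplastic and at 1.014, 0.6457 and 0.3964 CPM in treated lungs. Control lungs were at 1.655, 0.4637 and 0.7865 CPM, so hypoplastic 3 lay within the control range. Every treated lung was below every hypoplastic lung, by a narrow margin between treated 1 and hypoplastic 3. Of all genes tested 4.74% were separate in that direction. The fitted log2 fold change of Ctsk was -2.93 (SE 0.88, edgeR adjusted p 0.826), or -1.22 without hypoplastic 2. Mmp9 had -1.72 (SE 0.74, edgeR adjusted p 0.896), or -0.49 without that library. Without hypoplastic 2 the median of the breakdown list was -0.0894 and that of the assembly list -0.216.

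In treated against control lungs the medians were 0.0531 for the assembly and 0.28 for the breakdown list, with 10 of 19 and 10 of 13 genes higher. Over all genes tested 50.6% were higher, with a median of 0.00277. Without control 2 the medians of the 2 lists were -0.0791 and -0.0194. By edgeR and by DESeq2 0 genes passed, and 1 had an unadjusted edgeR p under 0.05. This was Efemp1 (fibulin-3), at 35.77, 49.98 and 36.44 CPM in control and at 33.59, 28.86 and 19.76 CPM in treated lungs, without overlap, as were 5.02% of all genes in that direction. The third log2 fold change of Efemp1 was -0.57 (SE 0.21, edgeR adjusted p 0.998), and its first was -0.42 (SE 0.21, edgeR adjusted p 0.439). The third was -0.40 without control 2 (unadjusted edgeR p 0.0909) and -0.38 without treated 3 (0.066). Serpine2, a serine protease inhibitor, followed with 0.44 (SE 0.21, edgeR adjusted p 0.998), or 0.21 without control 2.

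**Figure D5:**
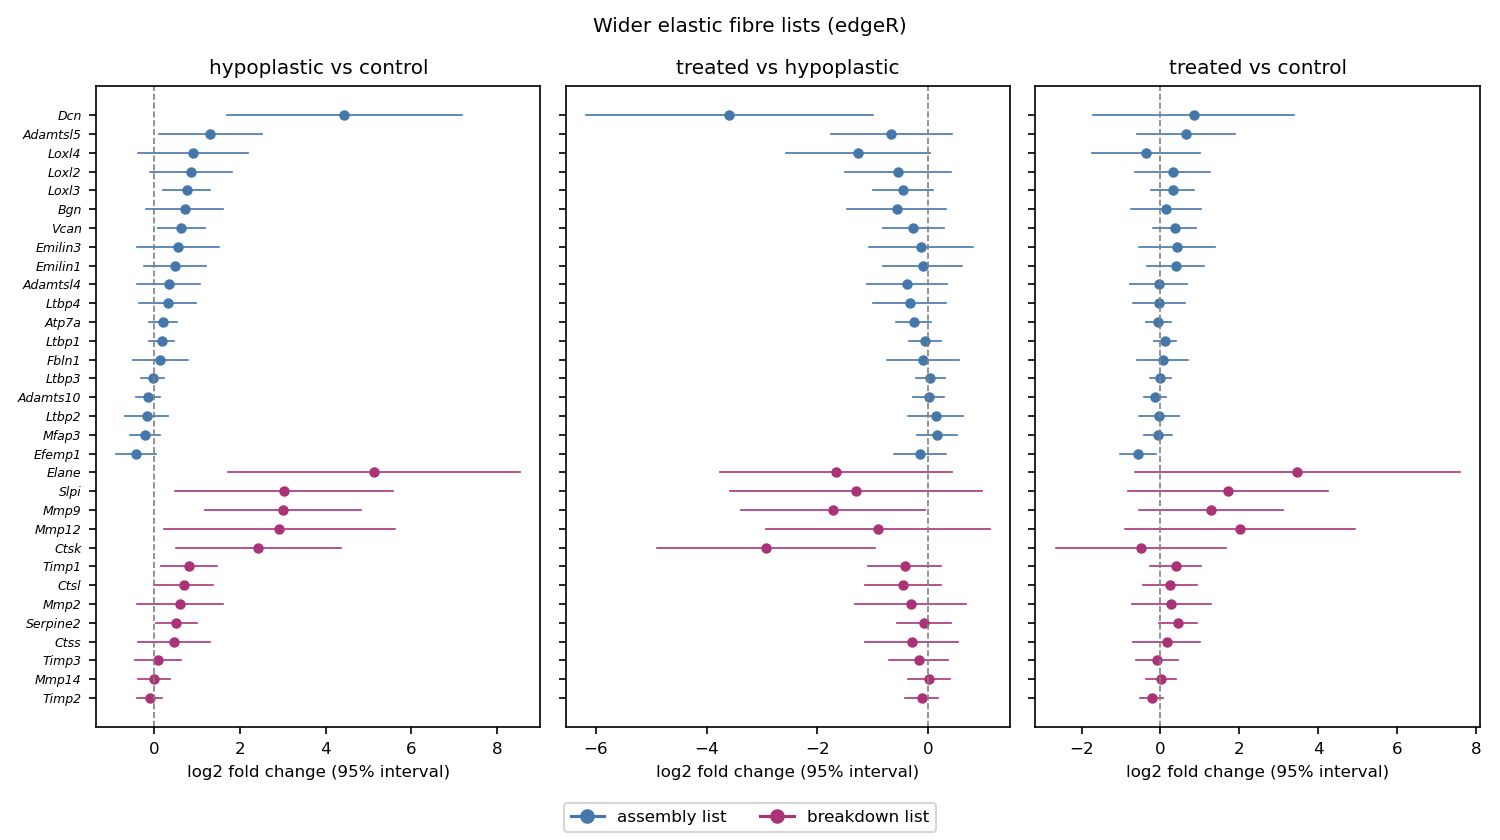
Fitted log2 fold change (horizontal axis, with approximate 95% intervals) of the 19 assembly genes (blue) and 13 breakdown genes (purple) tested, in the 3 comparisons from the edgeR fit. Points lie mostly right of 0 in hypoplastic against control and left of 0 in treated against hypoplastic lungs, which share the hypoplastic libraries, with the longest bars for Dcn, Elane, Slpi, Mmp9, Mmp12 and Ctsk.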

How the data were processed

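The authors deposited 1 table of estimated counts per gene for 9 libraries, named by NCBI Gene ID. Of its nonzero values 19.5% were exactly whole, with no tolerance, and no normalization between libraries was seen. Per the submitters' processing notes, the build was rn7 and DESeq2 was used. The sources used here do not give the aligner, counter settings, strand or annotation, so reads shared by overlapping or similar genes may have been split in an unknown way. Per the labels' protocols, the RNA of all libraries was extracted on 1 day.

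Counts were rounded. Symbols came from a RefSeq gene table of GRCr8, which matched 17314 IDs (99.1%). Genes kept by filterByExpr entered edgeR 4.0.16 (R 4.3.3) with TMM scaling and the quasi-likelihood test (glmQLFit with legacy=FALSE), 1 term per group over 9 libraries, which leaves 6 residual degrees of freedom. P-values were adjusted by Benjamini-Hochberg over 12966 genes. Standard errors are the change divided by the square root of F, and 95% intervals are approximate. Log2 CPM used a prior count of 2. The code was tested on simulated data.

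The members and lists were chosen with earlier results of these data known. All 10 members were named, as were, in each comparison, the 3 genes of the wider list with the smallest p and the 6 genes most like Eln. Loxl2, Loxl3, Loxl4, Vcan, Slpi, Timp1, Timp2, Mmp14 and the Ltbp genes were named after their values were seen. So was Serpine2 in hypoplastic against control lungs. Fbln2, Emilin2, Thsd4, Adamts17, Adamtsl2, Upk3b, Lrrn4, Mylpf and Acan were not analysed here, and Serpina1 and Myh7 did not pass the filter. The alternatives were RLE scaling, no filter, DESeq2 1.42.0, only the 6 libraries compared, a replicate block, a term for Xist, removal of 6 ribosomal and 7SL RNA rows, and each library left out; leaving out control 2 and hypoplastic 2 together, and recomputing the list counts, were added after the data were seen.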

Additional observations from a re-analysis of the deposited data

How the results depend on the processing

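No elastic fibre gene was called under any alternative. The number of genes called over the whole table in hypoplastic against control lungs was 1 by edgeR and 207 by DESeq2, 4 with only the 6 libraries compared, 2 without control 2 and hypoplastic 2 together and 0 to 45 with 1 library left out. For treated against hypoplastic lungs it was 17 by DESeq2 and 0 to 44 with 1 library left out, and for treated against control lungs 14 by DESeq2, 1 without both libraries and 0 to 1 with 1 left out, where edgeR called 0. The cause was not tested. No label says that a replicate number marks shared litters or days: deviations of same-numbered libraries correlated at -0.282 to 0.227 (above 0.1 in 3 of 9 pairs), others at -0.439 to 0.389, and 2 of 9 libraries were most alike to their own number. Under a replicate block 2 genes were called between hypoplastic and control lungs, and none of the members.

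The direction of small changes depended on single lungs. With 1 library left out, changes in hypoplastic against control lungs ran from -0.16 to 1.07 for Eln, -0.32 to 0.21 for Lox, -0.0196 to 0.30 for Loxl1, 0.0664 to 0.44 for Fbn1 and -0.28 to 0.24 for Mfap4. In treated against hypoplastic lungs they ran from -0.0398 to 0.43 for Eln, -0.0681 to 0.25 for Fbn2, -0.0702 to 0.24 for Fbln5, -0.16 to 0.16 for Lox and -0.0507 to 0.14 for Mfap4. In treated against control lungs they ran from -0.30 to 0.0724 for Fbn1, -0.0815 to 0.22 for Efemp2, -0.28 to 0.25 for Lox, -0.18 to 0.19 for Mfap2, -0.22 to 0.30 for Mfap4 and -0.0590 to 0.68 for Mfap5, and the log2 Fbn2 to Fbn1 ratio differed by -0.614 to 0.104.

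Without control 2 and hypoplastic 2 together, changes that reversed were Eln (-0.26), Fbn1 (-0.11) and Loxl1 (-0.18), while Lox was at -0.37, in hypoplastic against control lungs, Fbn2 (-0.0612), Fbln5 (-0.00282) and Mfap4 (-0.0510) in treated against hypoplastic lungs, and Efemp2 (-0.0818), Mfap2 (-0.18) and Mfap5 (-0.0598) in treated against control lungs. The replicate block gave Mfap4 0.00779 and the Xist term gave Mfap2 -0.0156 and Mfap5 -0.21 in that last comparison. With 3 libraries a group, the 95% intervals of the members were wide, as for Eln from 0.55-fold to 2.61-fold.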
